A study of Arabidopsis thaliana with 7 samples.

Results

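The noncoding RNAs described here are those of Arabidopsis thaliana that carry a locus identifier of the genome annotation, as distinct from transcripts that the authors' noncoding table names only by position. Of the 2381 features in that table, 358 have such an identifier, and 351 remained after the phosphate-starvation RNAs IPS1 and AT5G03545 (the locus of AT4) and the TAS1A, TAS1B, TAS1C, TAS2 and TAS3 precursors of trans-acting small RNAs were set aside. A reference gene table of assembly TAIR10.1 gives 153 of the 351 as transcribed pseudogenes, 124 as long noncoding RNAs (lncRNA), 62 as other noncoding RNAs (ncRNA), 6 as microRNA precursors, 3 as miscellaneous RNAs, 2 as antisense RNAs and 1 as a protein-coding gene. The label of the group therefore holds for the identifiers, but pseudogenes were its largest class.

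The RNA came from complete root systems of seedlings aged 14 d that had spent their last 7 d on medium with 0 µM phosphate (low phosphate, sodium chloride in place of the phosphate salt) or 500 µM phosphate (control). All plants were Columbia-0 with a His6 and FLAG tag on a ribosomal protein under the 35S promoter; the protocols name RPL18B as the tagged protein and the sample characteristics name RPL8. Tagged ribosomes were captured, digested with ribonuclease, and fragments of 26 to 32 nt were sequenced as footprints of ribosomes; libraries of poly(A) RNA came from the same kind of extract. Each condition had 2 footprint columns and 2 poly(A) columns, which the design text calls bioreplicates. No label ties a column to separate plants or plates, so p-values measure the spread between these columns. In the main fit that spread was estimated from the columns of both assays together, so poly(A) library sizes can move footprint calls. The 35S promoter is active in most root cells, so the footprints are a sum over root tissues, and in such bulk samples fewer cells of a type and less RNA per cell cannot be told apart.

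A ribosome footprint is a short piece of RNA that a ribosome shielded from ribonuclease, and on messenger RNAs its count follows translation. Noncoding RNAs can also give fragments of this size, either because ribosomes engage a short reading frame or because another particle, such as a small nucleolar ribonucleoprotein, shields them. The footprint to poly(A) ratio sets the fragments against the polyadenylated transcript, and it is high both for RNAs with many ribosomes and for RNAs that have no poly(A) tail. Small nucleolar RNAs (snoRNAs), which guide modification of ribosomal RNA, and organelle transcripts are largely without stable poly(A) tails. MicroRNA precursors are cut by a Dicer-like enzyme into short RNAs that, in plants, pair with target messengers over nearly their whole length.

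The microRNA precursors are the members for which a small RNA can be shown, since the deposited small RNA table gives the most frequent RNA of each small RNA locus. That RNA need not be the strand that acts on targets: the MIR398b sequence is from the arm opposite to the strand known to act on superoxide dismutase messengers. The 2 MIR824 sequences are complementary to each other over most of their length. Which of the sequences shown act on targets was not tested. The table does not name its libraries, and its loci (TAIR10) were tied to a member by lying between the same neighbouring genes. The sequences run 5′ to 3′, and capitals mark bases 2 to 8, the seed by position.
MIR163: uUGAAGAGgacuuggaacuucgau
MIR824, first locus: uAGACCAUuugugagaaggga
MIR824, second locus: cCUUCUCAucgauggucuaga
MIR822: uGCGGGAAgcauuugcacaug
MIR398b: gGGUUGAUaugagaacacacg
The MIR163 sequence, from chr1:24883905-24884420 on the plus strand, was the longest of them at 24 nt and made up 79.1% of the 6273356 small RNA reads there. The other sequences are 21 nt long. At MIR824, chr4:12625063-12625178 had 7874 reads and chr4:12625718-12625756 had 3018 reads, both on the plus strand. At MIR822, chr5:896798-897515 on the minus strand had 16138 reads, of which the sequence shown was 29.8%. The MIR398b sequence was the most frequent at 2 loci of its interval on the plus strand, chr5:4691007-4691382 with 24627 reads and chr5:4694626-4694840 with 24787 reads, and since that interval holds 2 microRNA genes, its reads cannot be split between them. No 2 of these sequences share bases 2 to 8, apart from the identical sequence at the 2 loci of the MIR398b interval. Which of these 2 loci belongs to MIR398b was not tested. No small RNA locus of the table lay between the genes that flank MIR414 and MIR775.

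The 351 RNAs took a small share of all footprints. Their reads equalled 0.587% and 0.863% of the coding total in low phosphate and 0.898% and 0.598% in control, so the conditions overlapped. The coding totals, to which CPM values (reads scaled to the library total) refer here, were 12817826 and 8940746 footprints in low phosphate and 7156329 and 7324092 in control, and 18262547 to 26746252 reads in the poly(A) columns. Defining root genes, among them COBL9 and CASP1, summed to 655 to 1090 CPM over the 8 columns, and genes of green tissue summed to 97.9 to 353 CPM, with footprint columns of 1 condition as far apart as 180 and 97.9 CPM in low phosphate and 121 and 204 CPM in control. Some root markers moved with the condition. The root hair genes COBL9 and EXP7 had 112 and 111 CPM and 108 and 114 CPM of footprints in low phosphate, against 42.9 and 62.5 CPM and 50.3 and 56.0 CPM in control, and the nitrate transporter gene NRT2.1 had 8.66 and 15.8 against 26.4 and 33.2 CPM. PHT1;1 was also higher, with 333 and 370 CPM of footprints in low phosphate against 247 and 214 CPM in control. Lower in low phosphate were SHR, at 14.4 and 15.4 against 20.0 and 20.2 CPM, and WER, at 5.85 and 4.70 against 8.38 and 6.96 CPM. SCR and CASP1 overlapped between conditions. The part of these shifts in the results below was not tested. The counts of the annotated RNAs ranked alike in replicate columns: Spearman's rho over the 351 RNAs, which share each library, was 0.945 between the low phosphate footprint columns and 0.931 between the control footprint columns.

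The poly(A) columns of the noncoding table went against their labels. IPS1, a phosphate-starvation RNA, had 95 and 4 poly(A) reads in the columns labelled low phosphate and 3925 and 4239 in those labelled control. In the coding table the same gene had 3142 and 3275 reads in low phosphate and 78 and 4 in control. AT5G03545, a gene of the same family, had 2017 and 482 reads in the noncoding columns labelled low phosphate and 40807 and 45463 in those labelled control, against 12616 and 14185 in low phosphate and 626 and 147 in control in the coding table. With the conditions exchanged, the AT5G03545 count of the noncoding table was 3.21 to 3.28 times that of the coding table in all 4 columns. As labelled that ratio ran from 0.0340 to 309. The total of the noncoding poly(A) columns was 0.855% to 1.83% of the coding total as labelled and 1.11% to 1.37% exchanged. The footprint columns followed their labels, with 57 and 18 IPS1 footprints in low phosphate and 0 and 0 in control. The results below keep the labels of the deposited table, write "labelled" for its poly(A) columns, and give the ratios and tests that rest on them with these columns exchanged as well.

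**Figure D1:**
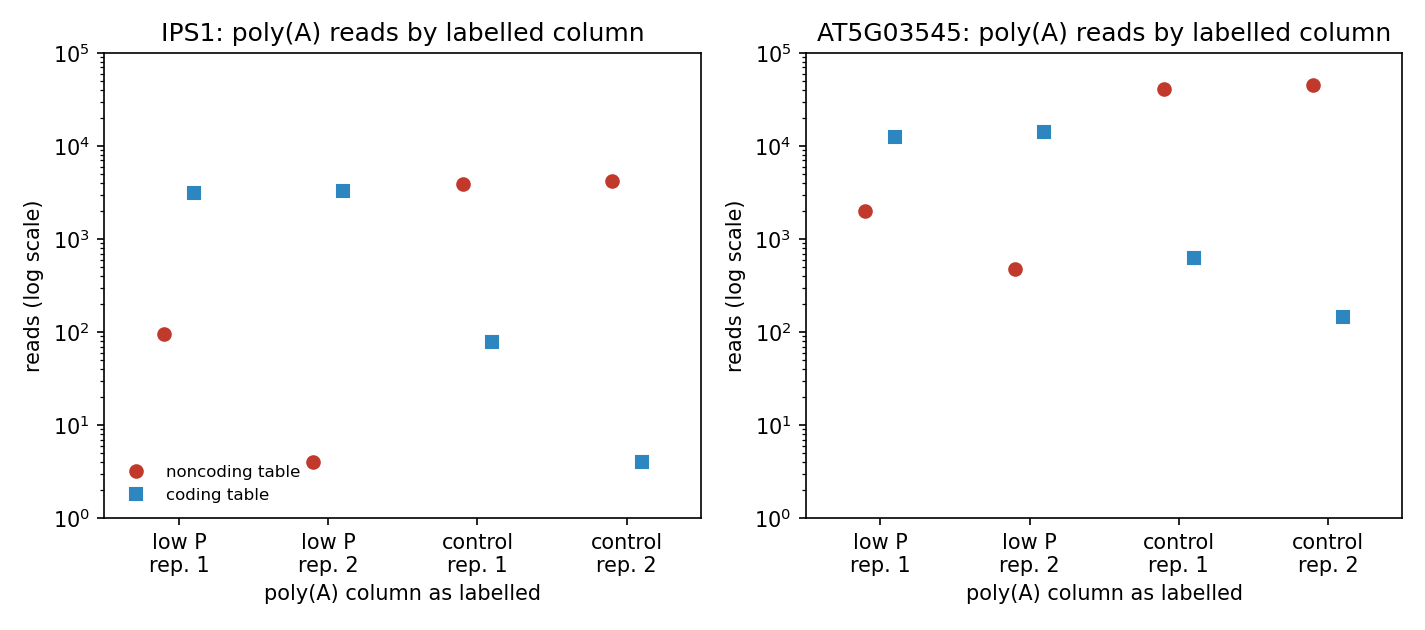
Poly(A) reads (log scale) of IPS1, left, and AT5G03545, right, in the 4 poly(A) columns as labelled, from the noncoding table (circles) and the coding table (squares). In the columns labelled low phosphate the noncoding table has 95 and 4 IPS1 reads while the coding table has 3142 and 3275 reads, and in the columns labelled control the order of the tables is turned round.

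Footprints were concentrated on few loci. Of 260479 footprints over the 4 columns, AT3G02832 alone held 20.8%, the first 4 RNAs held 44.5%, the first 10 held 61.1% and the first 50 held 86.5%. A total of 323 of the 351 RNAs had at least 10 footprints, the median RNA had 80, and 6 had none. In the poly(A) columns the median was 423 reads. In all, 2 RNAs had no read in any column, MIR414 among them.

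Members that overlap a snoRNA gene in the reference table had the largest share of footprints. These 7 loci, a class formed after the counts were seen, held 39.0% of the footprints of the annotated RNAs and 0.187% of their poly(A) reads. Their share of the annotated footprints was 41.6% and 46.1% in low phosphate and 32.9% and 30.9% in control. The conditions did not overlap in this share, but 2 columns against 2 cannot give a two-sided exact permutation p under 0.333. In CPM the class overlapped between conditions, with 2444 and 3983 in low phosphate and 2954 and 1848 in control.

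AT3G02832 on chromosome 3, which overlaps 2 snoRNA genes, had 18111 and 20156 footprints in low phosphate and 9635 and 6236 in control, or 1413 and 2254 CPM against 1346 and 851 CPM. Its poly(A) reads numbered 19 and 24 in the columns labelled low phosphate and 21 and 36 in those labelled control. The low phosphate columns were the higher ones, but the lower of them lay close to the higher control column. The log2 change of footprints was 0.74 ± 0.50 (SE, 2 columns per condition) and was not called (edgeR adjusted p = 0.601). With library sizes scaled by TMM on the noncoding features alone it was 1.39 ± 0.38 and called (edgeR adjusted p = 0.0124).

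AT2G43375 on chromosome 2 also overlaps 2 snoRNA genes and had 4260 and 4672 footprints in low phosphate and 5201 and 3853 in control. Its poly(A) columns held 89 and 66 reads where labelled low phosphate and 32 and 71 where labelled control. AT1G26235 on chromosome 1 is 126 bases long in the reference table, overlaps 1 snoRNA gene and had 4005 and 6408 footprints in low phosphate and 3379 and 2234 in control, with 4 and 2 poly(A) reads in the columns labelled low phosphate and 0 and 0 in those labelled control. The footprints of this short locus thus had almost no poly(A) reads beside them. AT1G16635 had 2358 and 2664 footprints in low phosphate and 1805 and 665 in control, and AT1G18745, which overlaps 4 snoRNA genes, had 2212 and 1436 against 1017 and 464. AT1G15002 was lower, at 375 and 276 footprints in low phosphate and 100 and 79 in control. The seventh, AT1G20691, had no footprint and 3 poly(A) reads in all, at or under what 3 counts allow. None of the 6 that were tested passed the test of footprints between conditions, and their median log2 change was 0.59. The counts are sums over each locus, so whether the reads lie on the snoRNA or beside it was not tested.

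**Figure D2:**
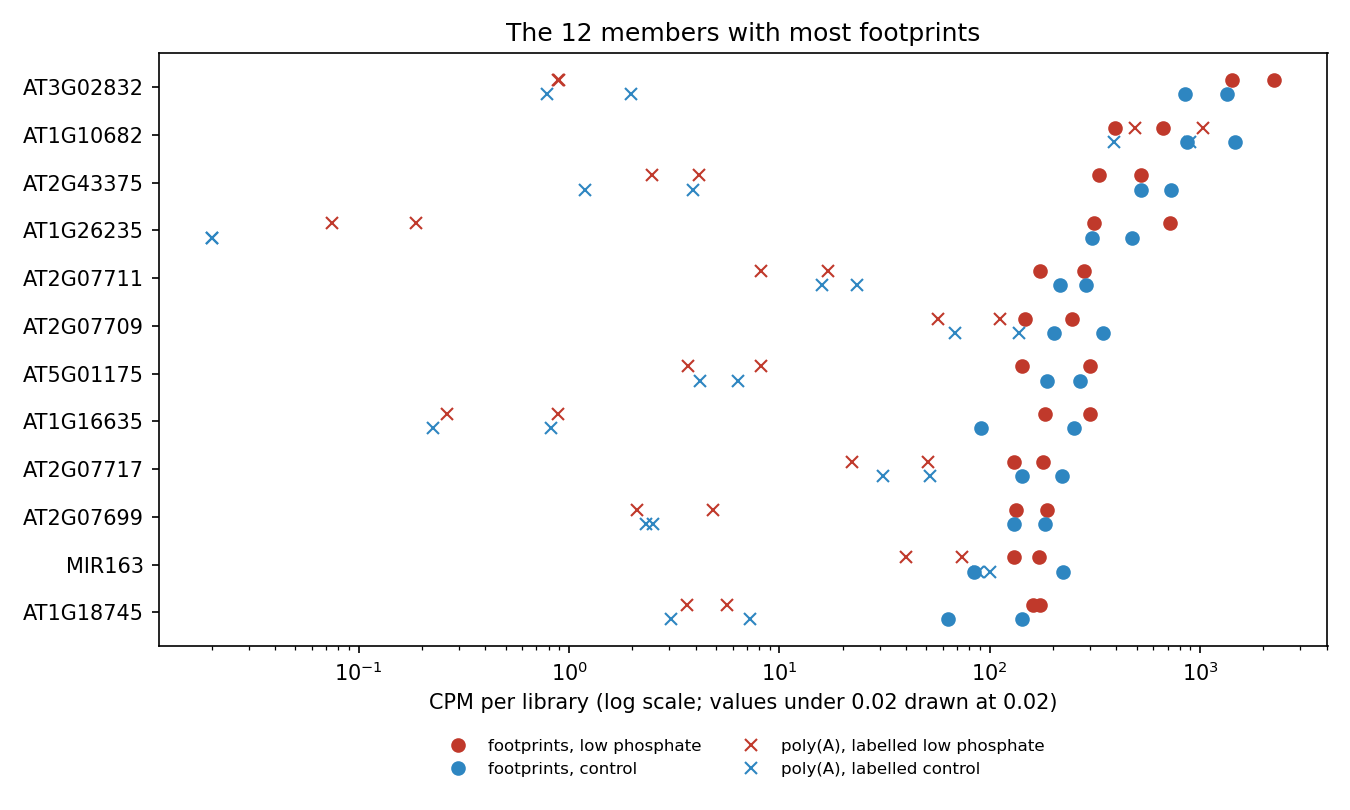
CPM per library (log scale) of the 12 annotated RNAs with most footprints, with footprints as circles and poly(A) RNA as crosses, low phosphate in red above control in blue. The snoRNA loci such as AT3G02832 and AT1G26235 have footprints far to the right of their poly(A) values, while AT1G10682 and MIR163 have both at similar CPM.

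A block of neighbouring loci on chromosome 2 also carried many footprints. The 15 members that lie between AT2G07660 and AT2G07680 in the gene order of the reference table, where a copy of the mitochondrial genome is inserted into the nuclear chromosome, held 15.5% of the annotated footprints and 3.57% of the poly(A) reads. This class too was formed after the counts were seen. Reads of the mitochondrial genome and of the inserted copy are nearly identical, and these values may belong to either, since the rule for such reads was not given in the sources used here. AT2G07711 had 2217 and 2512 footprints in low phosphate and 2054 and 1575 in control, AT2G07709 had 1890 and 2188 against 2472 and 1478, AT2G07717 had 1669 and 1598 against 1582 and 1039, and AT2G07699 had 1711 and 1678 against 1315 and 954. In CPM the conditions overlapped for these 4. Of the 14 that were tested, none was called between conditions in footprints by edgeR, and the median log2 change was -0.16.

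The remaining RNAs carried the other footprints. The 57 other ncRNAs held 21.2% of the footprints and 49.7% of the poly(A) reads, the 139 other pseudogenes 14.5% and 20.5%, and the 122 other lncRNAs 7.52% and 24.4%. AT1G10682 on chromosome 1 was the largest of the ncRNAs and had 5032 and 5977 footprints in low phosphate and 10490 and 6350 in control, or 393 and 669 CPM against 1466 and 867 CPM. Both low phosphate columns were below both control columns, with a log2 change of -1.14 ± 0.51 (SE, 2 columns per condition), which did not pass the test (edgeR adjusted p = 0.256). It was also the annotated RNA with most poly(A) reads, 22047 and 13053 in the columns labelled low phosphate and 10386 and 16383 in those labelled control. AT5G01175 on chromosome 5, a lncRNA that overlaps the peptide transporter gene PTR5, had 1822 and 2693 footprints in low phosphate and 1930 and 1368 in control. PTR5 itself had 5 and 2 coding footprints in low phosphate and 0 and 1 in control, so few reads of its coding sequence stood beside those of the lncRNA.

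Among the microRNA precursors, MIR163, whose product targets methyltransferases of the SABATH family, held most of the footprints. It had 1663 and 1538 in low phosphate and 1599 and 613 in control, with 1580 and 1065 poly(A) reads in the columns labelled low phosphate and 2340 and 1836 in those labelled control. MIR775 had 13 and 16 footprints in low phosphate and 22 and 12 in control. MIR824, whose product targets the MADS-box gene AGL16, had 3 and 3 against 2 and 0. MIR822 and MIR414 had none, while MIR822 had 1 and 15 poly(A) reads where labelled low phosphate and 7 and 16 where labelled control. MIR398b, whose family targets copper and zinc superoxide dismutases, is described with the called RNAs. It was the only member in the lists of microRNAs drawn up for nutrient responses (1 of 29 symbols), phosphate signalling (0 of 12) and root development (0 of 26), and none of 21 named lncRNA symbols matched a member.

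The footprint to poly(A) ratio in control spanned several orders of magnitude. For the 338 RNAs with at least 20 reads in the 4 control columns, taken as labelled, the median of the ratio of CPM values was 0.478, with quartiles at 0.182 and 1.46. With the poly(A) columns exchanged the median was 0.572 over 336 RNAs. Coding genes had a median of 0.886 with quartiles at 0.605 and 1.24, and transcripts known only by position had a median of 0.132. In these ratios 0.5 reads were added to each count. The median was 0.862 as labelled for the 192 annotated RNAs that overlap no coding gene, over 1.5 times the value for all, and 0.998 for 191 exchanged.

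Ratios far above those of most coding genes were found for some RNAs. A ratio above 10 was found for 36 of 338 annotated RNAs (10.7%), against 0.471% of coding genes and 6.15% of the transcripts known by position. Exchanged, 38 of 336 (11.3%) were above 10. The 6 snoRNA loci with enough reads were all above 10, with a median of 277 as labelled and 232 exchanged. The 14 loci of the mitochondrial insertion had a median of 6.66 as labelled and 9.47 exchanged, beside 1.90 for the 28 mitochondrial genes and 35.5 for the 73 plastid genes of the coding table. The other pseudogenes had a median of 0.964 as labelled and 0.998 exchanged and a long upper tail, with 23 of 135 above 10 as labelled and 24 exchanged. The other ncRNAs had a median of 0.498 as labelled and 0.619 exchanged. The other lncRNAs, of which 112 of 122 overlap a coding gene, had a median of 0.243 as labelled and 0.264 exchanged. The classes differ in that overlap, and its part in their ratios was not tested.

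**Figure D3:**
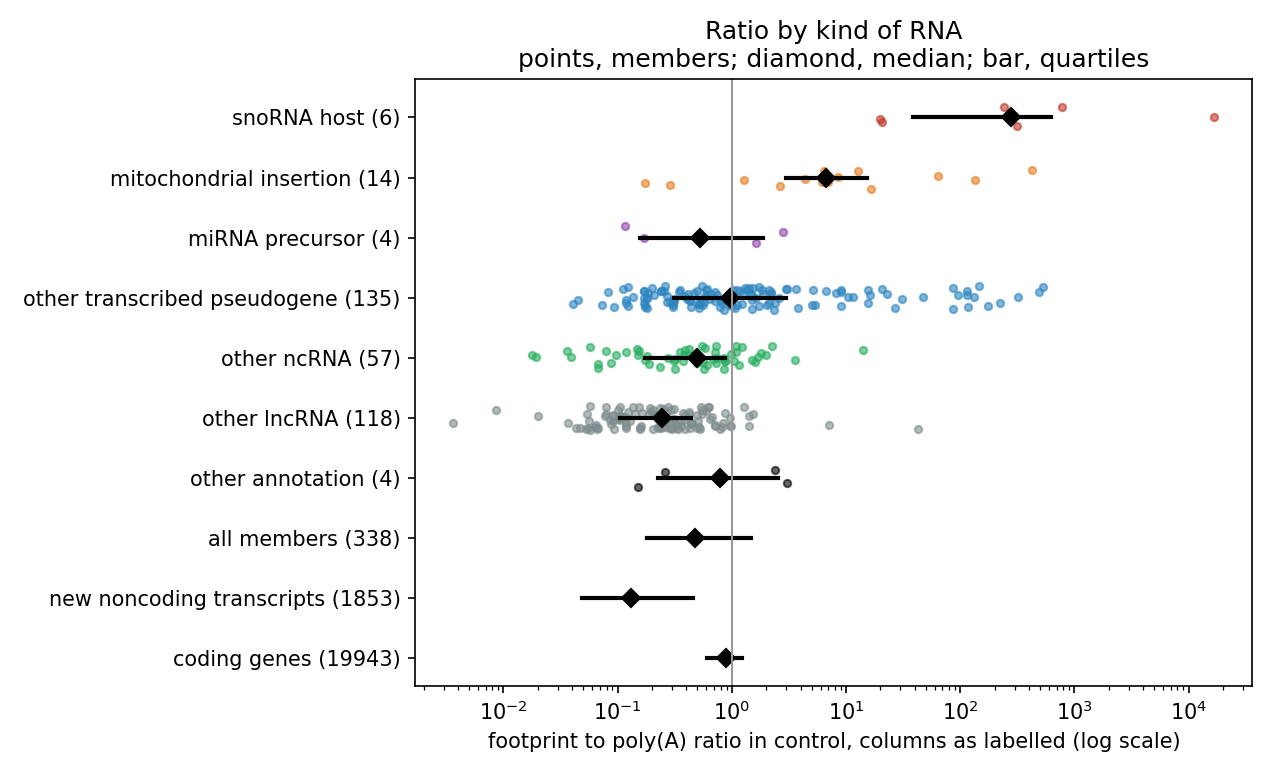
Ratio of footprint to poly(A) CPM in control (log scale, poly(A) columns as labelled, 0.5 reads added to each count) for each annotated RNA by class, with medians as diamonds and quartiles as bars, and the medians and quartiles of transcripts known by position and of coding genes below. All 6 snoRNA loci lie above 10, pseudogenes spread from below 0.1 to above 100, and coding genes keep to a narrow band with quartiles at 0.605 and 1.24.

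Single RNAs marked the ends of the range. AT1G26235 had 5613 footprints in control and no read in the poly(A) columns labelled control, so its ratio was at least 5816 against a floor of 3 counts over both columns; the exact interval starts at 4728. Exchanged, its 6 poly(A) reads gave a ratio of 2908 (95% counting interval 1335 to 7927). AT3G02832 had 15871 footprints beside 57 poly(A) reads as labelled, a ratio of 866 (668 to 1143), and 1147 (851 to 1586) exchanged. Of the other RNAs at the upper end, AT2G07688 of the insertion had 1288 footprints beside 8 poly(A) reads as labelled, a ratio of 500 (253 to 1162), and 1334 (456 to 6479) with the 3 reads of the exchanged columns. The pseudogenes AT4G12160, AT2G05441 and AT5G28897 had 388, 544 and 319 footprints in control beside 1, 2 and 2 poly(A) reads, which gives ratios of 1206 (215 to 47760), 845 (233 to 6999) and 496 (136 to 4111). Exchanged, AT4G12160 had 2 poly(A) reads and a ratio of 603 (166 to 4997), AT2G05441 again had 2 reads and 845, and AT5G28897 had none, a ratio of at least 331 against the same floor, with an exact interval that starts at 267. These exact intervals cover counting error only. The upper end thus rested on RNAs with many footprints and almost no poly(A) reads.

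The lower end held RNAs with ample poly(A) reads and few footprints. AT2G14878 had 56 and 35 footprints in control beside 6292 and 8741 poly(A) reads in the columns labelled control, a ratio of 0.0188 (0.0151 to 0.0231), and 0.0206 exchanged. AT3G54366 had 19 and 11 footprints beside 2102 and 2611 poly(A) reads, a ratio of 0.0198 (0.0133 to 0.0283), and 0.0195 exchanged. AT3G57965 had 1 footprint beside 694 poly(A) reads, a ratio of 0.00448 (0.000113 to 0.0250), and 0.00456 exchanged. AT1G64572 had 5 beside 512, a ratio of 0.0304 (0.00981 to 0.0713), and 0.0340 exchanged. AT1G26208 had no footprint in control beside 153 poly(A) reads, at least 16.4-fold lower against a floor of 3 counts over both columns, and at least 12.2-fold lower exchanged; the exact intervals of the ratio end at 0.0759 and, exchanged, at 0.102. AT5G53048 depended on the labels: 1 footprint in control stood beside 1597 poly(A) reads as labelled, a ratio of 0.00195 (4.92e-05 to 0.0109), but beside 29 reads exchanged, a ratio of 0.107 (0.00262 to 0.646). The order at the lower end is therefore not resolved among RNAs with 0 to 5 footprints.

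**Figure D4:**
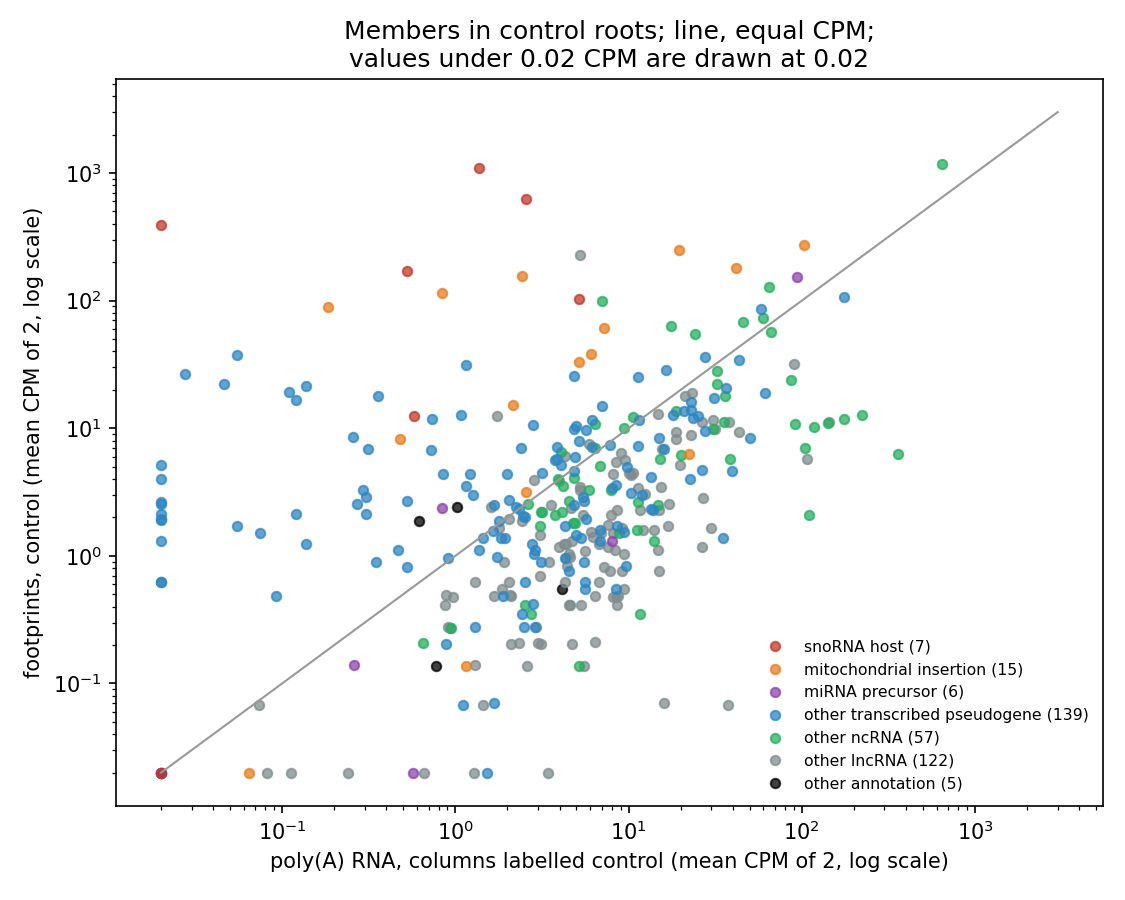
Mean footprint CPM against mean poly(A) CPM in control (both log scales, poly(A) columns as labelled, values under 0.02 drawn at 0.02) for the 351 annotated RNAs, coloured by class, with a line at equal CPM. The snoRNA loci sit far above the line, except AT1G20691, which had no read in these columns and is drawn at 0.02 on both axes. Most lncRNAs sit below the line, and a group of pseudogenes lies at the left with footprints but almost no poly(A) reads.

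Tested against poly(A) RNA within control, footprints of 57 of 339 annotated RNAs were higher and of 142 lower (edgeR's quasi-likelihood test, Benjamini-Hochberg adjusted p under 0.05), against 9.66% higher and 64.0% lower of the 2206 noncoding features tested. Exchanged, 70 were higher and 151 lower, against 10.6% and 63.0% of all. As labelled, all 6 snoRNA loci tested were higher. Of the 14 loci of the insertion 10 were higher and 2 lower, of the 138 other pseudogenes 37 were higher and 37 lower, of the 57 other ncRNAs 2 and 23, and of the 118 other lncRNAs 2 and 78. Exchanged, the snoRNA loci were again all higher, and the counts were 11 and 2 for the insertion, 46 and 38 for the other pseudogenes, 4 and 24 for the other ncRNAs and 2 and 85 for the other lncRNAs. In low phosphate 71 were higher and 151 lower as labelled, against 9.84% and 68.5% of all, and 71 and 181 exchanged, against 9.48% and 71.8% of all. Without the poly(A) column labelled low phosphate replicate 1, fewer were called lower, among all features as well. The median log2 ratio then moved from -1.114 to -0.68 for the annotated RNAs and from -3.035 to -2.56 for all features. Scaled by TMM on the noncoding features alone, the split turned to 123 higher and 82 lower in control, with 156 higher and 54 lower in low phosphate, against 16.9% higher and 44.8% lower of all features in control and 19.0% and 41.8% in low phosphate. Over all features the lower calls thus stayed the more frequent ones, while for the annotated RNAs the side of 1 on which most calls lie depends on setting both assays to their coding totals.

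Between conditions, few annotated RNAs changed in footprints. Of 340 tested, 6 rose and 3 fell in low phosphate (edgeR's quasi-likelihood test, Benjamini-Hochberg adjusted p under 0.05), against 0.679% higher and 1.72% lower of all 2210 noncoding features. Their median log2 change was -0.20 and that of all features was 0.00, the fitted value of features with no footprint in any column. DESeq2 called 4 higher and 2 lower, against 0.362% and 1.09% of all; it gave no adjusted p for AT1G33740 and AT4G23215, and did not call AT3G33002 or AT3G59765 (DESeq2 adjusted p = 0.0980 for each). Both low phosphate columns were above both control columns for 46 of the 340 (7.06% of all features) and below them for 87 (21.1% of all features). The filter used both assays, so the 2210 include features with no footprint, which cannot be called or lie apart. In an edgeR fit of the 4 footprint columns alone, 611 features passed the filter, 255 of them annotated. It called 12 of the 611 higher and 35 lower, and 6 and 1 of the 255. With TMM on the noncoding features alone, edgeR called 18 higher and none lower, against 1.97% and 0.986% of all, 61 had an unadjusted p under 0.05, against 10.8% of all, and the median of the annotated RNAs moved to 0.46. Of the 6 that rose, 4 are pseudogenes, 1 is a lncRNA and 1 an ncRNA.

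AT5G53048 on chromosome 5, a lncRNA that overlaps the coding gene AT5G53050, had the most significant change. It had 79 and 63 footprints in low phosphate and 0 and 1 in control, or 6.16 and 7.05 CPM against 0 and 0.137 CPM. Nearly all its footprints thus came from the low phosphate columns. The ratio of the summed counts was 94.5 (95% counting interval 16.7 to 3759), and the fitted log2 change was 6.42 ± 0.87 (SE, 2 columns per condition; edgeR adjusted p = 8.99e-11). The overlapping coding gene had 221 and 160 footprints in low phosphate and 134 and 158 in control, 17.2 and 17.9 CPM against 18.7 and 21.6 CPM. Its CPM was thus lower in both low phosphate columns, where that of the lncRNA was higher.

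AT5G36270 on chromosome 5, a pseudogene, had 179 and 105 footprints in low phosphate and 4 and 21 in control, or 14.0 and 11.7 CPM against 0.559 and 2.87 CPM. Its conditions did not overlap, although the control columns differed more than the low phosphate ones, and the log2 change was 2.90 ± 0.50 (SE, 2 columns per condition; edgeR adjusted p = 5.48e-07). AT1G34330 on chromosome 1, also a pseudogene, had 112 and 96 footprints in low phosphate and 17 and 17 in control. Its CPM values were 8.74 and 10.7 against 2.38 and 2.32, and the log2 change was 2.04 ± 0.48 (edgeR adjusted p = 0.00168). The size of the first 2 rested on the control columns: without control replicate 1 the log2 change was 5.52 for AT5G53048 and 2.16 for AT5G36270, and without control replicate 2 it was 9.83 and 4.51. AT5G53048 and AT5G36270 were called under every alternative tried, and AT1G34330 under all but the coding totals for the poly(A) columns of the same fit (edgeR adjusted p = 0.101).

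The calls of the other 3 that rose ended under more of the alternatives. AT4G23215 was not called with the newer quasi-likelihood method (edgeR adjusted p = 0.0884). AT3G07215 was not called with coding totals for the poly(A) columns of the same fit (edgeR adjusted p = 0.326). The log2 change of AT3G07215 ran from 1.31 to 1.79 without 1 footprint column. AT1G33740 had 32 and 19 footprints in low phosphate and 0 and 1 in control, a ratio of 33.9 (5.82 to 1367), and its call ended without low phosphate replicate 1 (edgeR adjusted p = 0.0672) or control replicate 1 (0.135). AT4G23215 had 16 and 17 against 1 and 0, a log2 change of 4.35 ± 1.19, and its call ended without low phosphate replicate 2 (edgeR adjusted p = 0.0862) or control replicate 2 (0.0908). AT3G07215, an ncRNA on chromosome 3, had more reads, 394 and 283 against 90 and 66, or 30.7 and 31.7 CPM against 12.6 and 9.01 CPM. Its log2 change was 1.53 ± 0.43 (SE, 2 columns per condition; edgeR adjusted p = 0.0186), and the call ended without low phosphate replicate 1 (edgeR adjusted p = 0.0671) or control replicate 2 (0.0964).

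The 3 RNAs that fell were near the threshold. MIR398b had 1 and 2 footprints in low phosphate and 7 and 12 in control, so that control was 9.52 times low phosphate (95% counting interval 2.80 to 50.2). Its log2 change was -3.17 ± 0.89 (SE, 2 columns per condition; edgeR adjusted p = 0.0201), and its poly(A) reads numbered 124 and 110 in the columns labelled low phosphate and 143 and 195 in those labelled control. It overlaps the coding gene AT5G14550, which had 15.1 and 8.28 CPM of footprints in low phosphate and 11.5 and 7.92 CPM in control. AT3G33002, a pseudogene, had 21 and 30 footprints against 82 and 42, a log2 change of -1.81 ± 0.53 (edgeR adjusted p = 0.0327). AT3G59765, an ncRNA, had 31 and 20 against 77 and 23, a log2 change of -1.57 ± 0.47 (edgeR adjusted p = 0.04). In CPM both low phosphate columns lay below both control columns for all 3. The number of RNAs called lower moved with the footprint column left out, and so did the number over all features. Both numbers were highest without control replicate 2. AT3G59765 had a log2 change of -0.43 without control replicate 1. Its call also ended without low phosphate replicate 1 (edgeR adjusted p = 0.307) or low phosphate replicate 2 (0.145). The MIR398b call ended without low phosphate replicate 1 (edgeR adjusted p = 0.51) or control replicate 2 (0.0946), and that of AT3G33002 without low phosphate replicate 1 (0.596) or control replicate 1 (0.803).

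**Figure D5:**
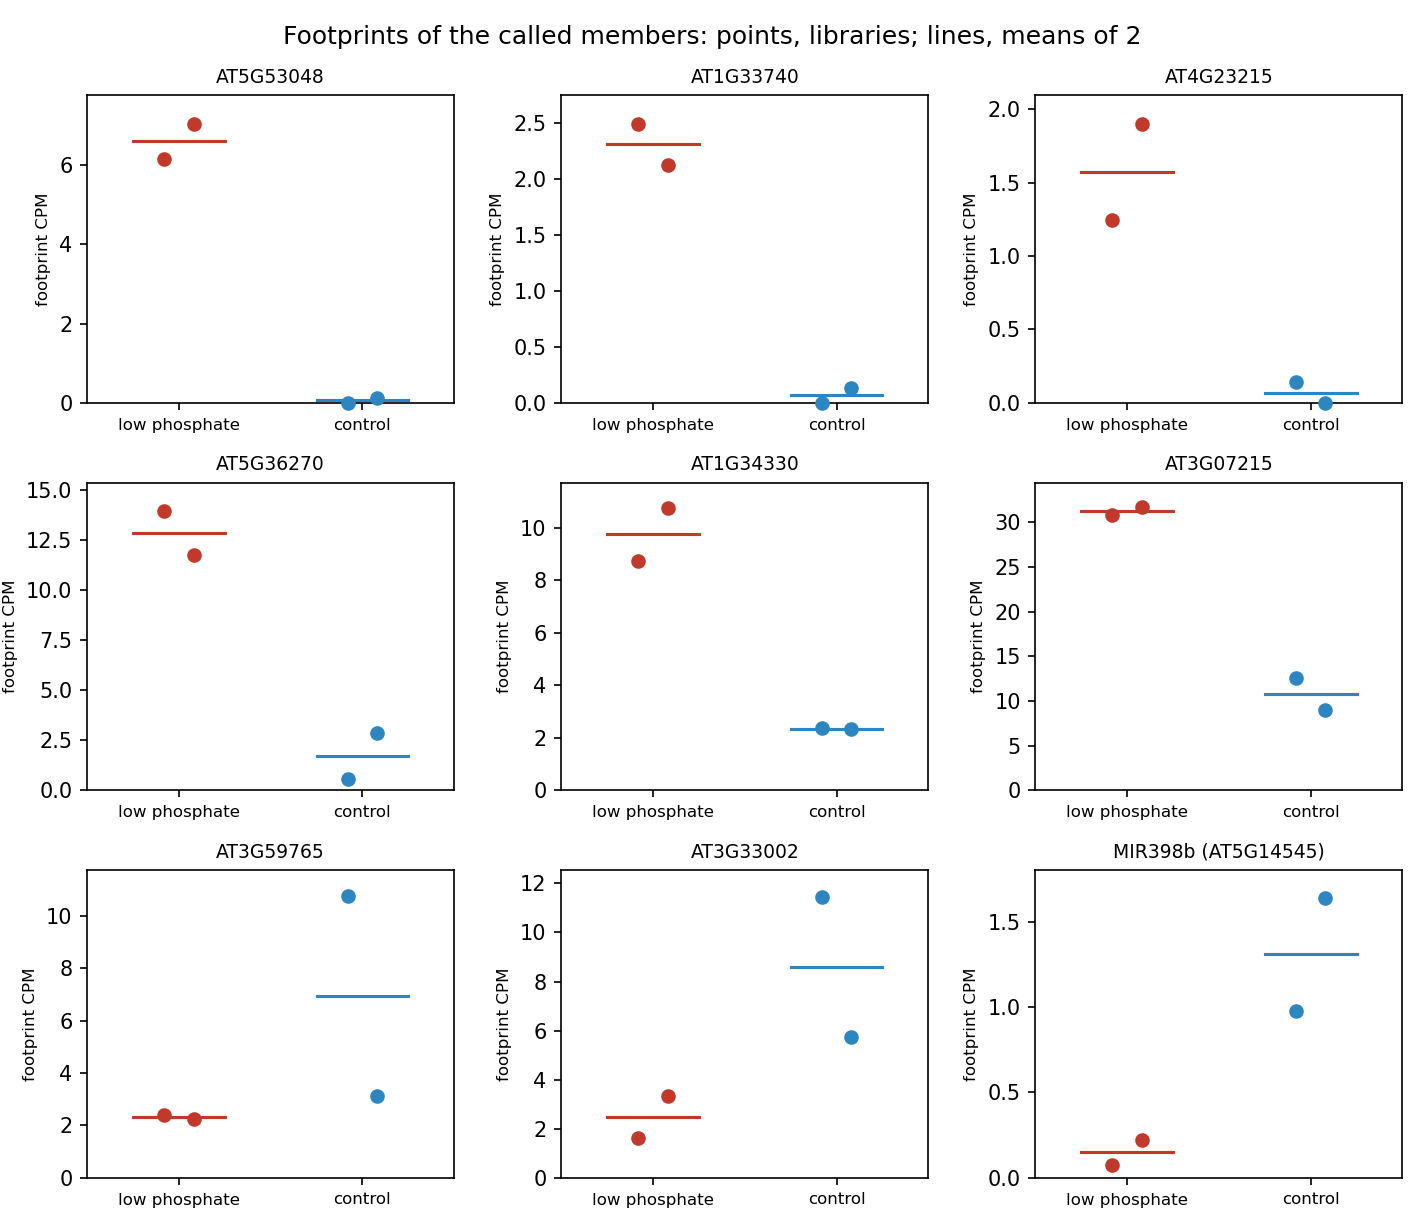
Footprint CPM of the 9 annotated RNAs called between conditions, with low phosphate left of control, points for libraries and lines for the means of 2. In each panel the low phosphate and control columns do not overlap, and for AT3G59765 the lower control column (3.14 CPM) lies close to the low phosphate columns (2.42 and 2.24 CPM).

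In poly(A) RNA the direction of every call turned with the column labels. As labelled, 8 annotated RNAs were lower in low phosphate and none higher among 340 tested by edgeR, against 1.04% lower and 0.0452% higher of all 2210 features; 15 had an unadjusted p under 0.05 in either direction, against 4.62% of all, and DESeq2 called 5 lower and none higher, against 0.769% and 0.0452% of all. Exchanged, the same 8 changes have the opposite sign, with 8 higher and none lower, against 1.04% higher and 0.0452% lower of all. AT5G53048 had 21 and 8 poly(A) reads in the columns labelled low phosphate and 691 and 906 in those labelled control, a log2 change of -5.80 ± 0.52 (SE, 2 columns per condition; edgeR adjusted p = 1.29e-25) as labelled. AT1G33740 had 0 and 0 reads against 15 and 30, AT1G34330 had 51 and 74 against 325 and 270, and AT5G36270 had 38 and 43 against 163 and 202. As labelled these 4 went against the direction of their footprints, and exchanged they had the same direction. The other 5 RNAs called in footprints, AT3G07215, AT4G23215, AT3G33002, AT3G59765 and MIR398b, were not called in poly(A) RNA (edgeR adjusted p = 1 for each). The count of 8 fell without any 1 of the poly(A) columns, as did the count over all features. Over these fits the log2 change as labelled ran from -6.50 to -5.36 for AT5G53048 and from -7.26 to -6.37 for AT1G33740.

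The 4 other RNAs called in poly(A) RNA were not called in footprints. AT4G11642, a pseudogene, had 46 and 37 poly(A) reads in the columns labelled low phosphate and 161 and 200 in those labelled control. AT5G01732, a lncRNA that overlaps SCAR4, a gene of the actin-regulating SCAR/WAVE complex, had 14 and 16 against 69 and 79. CYP51G2 (AT2G17330), annotated as a pseudogene of the sterol demethylase family, had 42 and 49 against 182 and 126. AT4G31248, a lncRNA that overlaps the coding gene AT4G31250, had 79 and 44 against 209 and 175. AT4G31250 had 803 and 913 poly(A) reads in low phosphate and 420 and 322 in control in the coding table, whose columns follow their labels. Reads of the lncRNA and of that gene may be shared, since the strand setting of the count was not given in the sources used here. As labelled, the log2 changes of these 4 ran from -2.29 to -1.68, and exchanged from 1.68 to 2.29, and each of these 4 calls ended without any one of the 4 poly(A) columns.

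The change of the footprint to poly(A) ratio between conditions depended on the labels to the same degree. As labelled, 7 annotated RNAs rose and none fell in low phosphate among 340 tested by edgeR, against 1.04% higher and 0.362% lower of all; 37 had an unadjusted p under 0.05, against 10.6% of all, and DESeq2 called 6 higher and none lower, against 0.86% and 0.0905% of all. AT5G53048 had the largest of these changes, 12.22 ± 0.94 on the log2 scale (SE, 2 columns per condition and assay). The others were AT1G33740, AT5G36270, AT4G23215, AT1G34330, AT4G11642 and AT4G31248, and the calls of AT4G23215 and AT4G31248 ended when single columns were left out. Exchanged, edgeR called none in either direction, against 0.0% higher and 0.0905% lower of all, and 20 had an unadjusted p under 0.05, against 7.51% of all. AT5G53048 then had a log2 change of 0.63 ± 1.31 (edgeR adjusted p = 1.00).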

How the data were processed

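Per the file headers, the authors deposited unnormalized counts, by gene in the coding table and by transcript in the noncoding table. Bowtie2 2.2.9, TopHat 1.3.1 and CASAVA 1.8 and the build TAIR10 are named in the submitters' processing notes; each tool's role, the read counter, its strand setting and its treatment of reads with several places were not given in the sources used here. Of the members, 151 of 351 overlap a coding gene of the reference table, so overlapping, antisense and near-identical loci, pseudogenes included, may share reads. The deposited RPKM tables of the authors were read only for the positions in their labels. Small RNA counts per locus were taken as deposited. Member names, classes, lengths, overlaps and neighbours came from a table of assembly TAIR10.1 and rest on its own positions. Those positions were not set against the positions of the deposited tables.

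The 4 low phosphate and 4 control columns of the 2 assays entered 1 fit in edgeR 4.0.16 (R 4.3.3). It used filterByExpr at a minimum count of 10 and two-sided quasi-likelihood tests. Benjamini-Hochberg adjustment ran over all noncoding features tested, with a threshold of 0.05. Errors are SE, worked back from the log2 change and the F statistic of that fit, whose spread is shared by both assays. Footprint library sizes were coding totals. Between conditions, poly(A) sizes were the noncoding table's own totals times TMM factors from its poly(A) columns, since their labels disagreed with the coding table. These sizes, called own totals here, were rescaled to the mean level of the coding totals. Within a condition, poly(A) sizes were coding totals. Of the 351 members, 340 passed the filter (339 within a condition). The tests of footprints and of poly(A) RNA between conditions were also run on simulated counts, drawn with 1 common spread for all features. That run did not cover the tests of ratios or a spread that differs between features. Alternatives were DESeq2 1.42.0, TMM factors on the coding totals, TMM on the noncoding features alone for all columns, and no filter. Further alternatives were the replicate number as a block, other poly(A) sizes, single assays and leaving out each column. Exchanging the poly(A) columns and the newer quasi-likelihood method were chosen after seeing the data. The noncoding table holds no dsRNA column, so the planned dsRNA test was not run.

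Text names follow a rule: members called between conditions, up to 10 each way; the 10 with most footprints; the 6 highest and 6 lowest ratios among those with at least 50 reads in the control columns; and listed microRNAs. Other names were chosen after their values were seen. Members and lists were chosen with earlier results of these data known.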

Additional observations from a re-analysis of the deposited data

How the results depend on the processing

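The replicate numbers showed no pairing of the columns: deviations of replicate 2 from replicate 1 correlated at -0.0128 between conditions in footprints and at 0.0666 in poly(A) RNA. These values cover 2120 features, while 611 passed the filter in the footprint columns alone. With so few footprints on most features, pairing in footprints could be missed. With the replicate block, 6 annotated RNAs rose and 1, MIR398b, fell in footprints, against 15 and 27 of all 2210 features. AT3G33002 and AT3G59765 were not called (edgeR adjusted p = 0.0836 and 0.12). In that fit 8 fell in poly(A) RNA as labelled, against 21 of all, and 6 rose in ratio, against 20 of all. The number that fell in footprints, 3, was 0 with coding totals for poly(A), against 21 of all 2206 features. It was 1 with poly(A) coding totals exchanged within a condition, against 30 of all 2207. A fit of the footprint columns alone also gave 1, against 35 of all 611. The poly(A) columns exchanged at coding totals gave 1, against 34 of 2204, and the newer quasi-likelihood method 1, against 38 of 2210. Leaving out 1 footprint column moved the counts of the annotated RNAs and those of all features. The number that rose in footprints, 6, was 4 with coding totals for poly(A), against 11 of all 2206 features. AT1G34330 and AT3G07215 were not called there. With TMM on noncoding features alone, 18 rose and 0 fell in footprints, against 44 and 22 of all 2231 features. In ratio 15 rose with this scaling, against 38 of all. Footprints against poly(A) RNA then gave 123 higher and 82 lower in control and 156 and 54 in low phosphate.

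In poly(A) RNA, 8 lower as labelled became 5 with DESeq2 and 4 with coding totals, against 17 of 2210 and 15 of 2206 features. The number fell without any 1 of the poly(A) columns, as did the number over all features. Exchanged, 8 were higher and 0 lower, and 5 and 0 with coding totals, the latter against 16 and 2 of all 2204. The ratio change gave 7 higher as labelled and 0 in both exchanged fits, against 23 of all features as labelled and 0 exchanged. Without single columns, some of the calls as labelled ended. Footprints against poly(A) RNA without 1 column gave 51 to 60 higher and 106 to 153 lower in control, and 55 to 69 higher and 100 to 157 lower in low phosphate; the 100 came without the column labelled low phosphate replicate 1. The median ratio in control, 0.478, was 0.862 without members that overlap a coding gene and 0.398 to 0.595 without 1 column. Where 1 column was left, it was assumed to vary like the other groups.

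Exchanging the poly(A) columns turned the sign of each called poly(A) change by construction. The log2 changes, with own totals and then coding totals, were 5.80 and 5.70 for AT5G53048, 6.98 and 6.90 for AT1G33740, 2.25 and 2.10 for AT1G34330, 2.17 and 2.02 for AT5G36270, 2.13 and 2.00 for AT4G11642, 2.29 and 2.15 for AT5G01732, 1.77 and 1.64 for AT2G17330, and 1.68 and 1.60 for AT4G31248. The change in ratio was then -2.06 and -1.98 for AT1G33740, -0.20 and -0.054 for AT1G34330, and -0.36 and -0.22 for AT4G11642.

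Depth limits the low end: 1 footprint is the whole control count of 3 of the 6 RNAs that rose. The dsRNA alternatives were not run, since the noncoding table has no dsRNA column.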
